A study of Drosophila melanogaster with 11 samples.

Results

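The genes described here encode the subunits of the proteasome, and their RNA was followed in Drosophila melanogaster larvae (3rd instar) with and without a mutation in dCap-D3, in the salivary gland and the wing disc. They were chosen by name: every entry of the count table whose symbol starts with Prosalpha or Prosbeta, or with Rpn or Rpt and a digit. This gave 33 of 16034 entries, or 33 of the 11021 that carry a symbol. Of these, 31 are subunit genes and 2, Rpt3R and Rpt6R, are related copies, which are given apart. A further 13 related copies of the T and R kind have no symbol in the table and were named by position. Prosalpha1 is not analysed here. The RNA came from 4 groups: wild-type glands (w1118, 3 libraries), glands of w;dCap-D3c07081/c07081 larvae (3 libraries), wild-type wing discs (w1118, 3 libraries) and wing discs of w;dCap-D3c07081/c07081 larvae (2 libraries). Stocks were kept at 25 C, and a library pooled 50 tissues for glands or 150 for discs. The mutants were homozygous in the whole animal, so every tissue of the larva carried the allele. Whether the libraries of a group stem from different cultures is not stated in the labels, and p-values therefore cover only the spread among these libraries, which may be technical.

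The proteasome degrades proteins that carry ubiquitin chains. Its core particle is a barrel of stacked rings, in which alpha subunits form the gate and beta subunits hold the catalytic sites. Its regulatory particle sits at the ends of the barrel, with a base of Rpt ATPases and large Rpn scaffolds that unfolds the substrate and a lid of Rpn subunits that removes the ubiquitin. In flies and mammals the subunit genes are known to be induced together when proteasome activity falls, through cap-n-collar transcription factors (cnc in flies). The dCap-D3 protein belongs to condensin II, a complex that acts on chromosome structure. The gland is made of polytene cells that secrete glue proteins, and the disc is a growing diploid epithelium.

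The 11 libraries held 52483185 to 157639957 counts, the largest being wing disc wild-type replicate 3. Cap-D3 itself went from 4.83, 4.36 and 5.21 CPM (counts relative to the library total after TMM scaling within the tissue) in wild-type glands to 0.0516, 0.0553 and 0.0664 in mutant glands, and from 17.1, 12.9 and 25.9 in wild-type discs to 2.93 and 2.61 in mutant discs (log2 fold change -6.33 ± 0.22, adjusted p = 1.43e-04 in glands, -2.75 ± 0.38, adjusted p = 0.0916 in discs). Mutant and wild-type libraries did not overlap in either tissue, though the disc difference was not called. The mutant gland values rest on only 3, 4 and 4 counts. Marker sums are on the same scale, set separately in each tissue. Salivary gland markers, 12 genes, summed to 325828 to 414488 CPM in wild-type glands and 254783 to 351460 in mutant glands. Of the 12, 3 fell in mutant glands and 0 rose, and their sum in disc libraries was 172 to 695. Wing disc markers, 14 genes, summed to 842 to 2493 CPM in discs and 71.4 to 115 in glands. Fat body markers, 7 genes, stood at 72627 to 150199.8 CPM in glands against 1884 to 17185 in discs, and 3 of the 7 rose in mutant glands (Lsp1alpha at 3.10 ± 0.33, adjusted p = 0.00474 on the log2 scale). Gut markers, 9 genes, ranged from 3.01 to 5174 CPM among the wild-type glands and from 0.631 to 1.45 among the mutant glands. Of the 4 gut markers tested in glands 1 was called, lower in the mutant. Hemocyte markers, 8 genes, summed to 50.7 to 64.1 CPM in wild-type and 18.8 to 32.1 in mutant glands (4 fell, 1 rose), and to 48.5 to 109 in wild-type and 17.7 to 21.0 in mutant discs (0 called). Of 9 muscle markers 2 fell in mutant glands and 1, Mhc, in mutant discs, where their sum was 78.7 to 82.3 CPM against 164 to 275 in wild type. Of 6 trachea markers tested, 2 fell in mutant glands. Beside these marker counts, 10.7% of all tested genes were called in glands and 0.475% in discs. The part of these other tissues in the values below was not tested. In RNA from whole tissue, fewer cells of a type and less RNA per cell cannot be told apart.

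Subunit genes were among the abundant transcripts in every library. Their RPKM values (CPM per kilobase of exon, scaled over all 11 libraries) lay at or above the 90.6th percentile of detected genes in each library. Together the 31 genes took 0.289% to 0.322% of the counts in gland libraries and 0.853% to 1.10% in disc libraries. The 10 most abundant genes took 39.0% to 48.0% of a gland library and 7.62% to 9.05% of a disc library, and shares of the whole move with them. The 13 core genes had exons of 815 to 1215 bp in all (median 973), and the 18 regulatory genes 995 to 3412 bp (median 1589). The genes lie on all the large chromosome arms, with 4 on 2L, 9 on 2R, 5 on 3L, 9 on 3R and 4 on X.

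**Figure D1:**
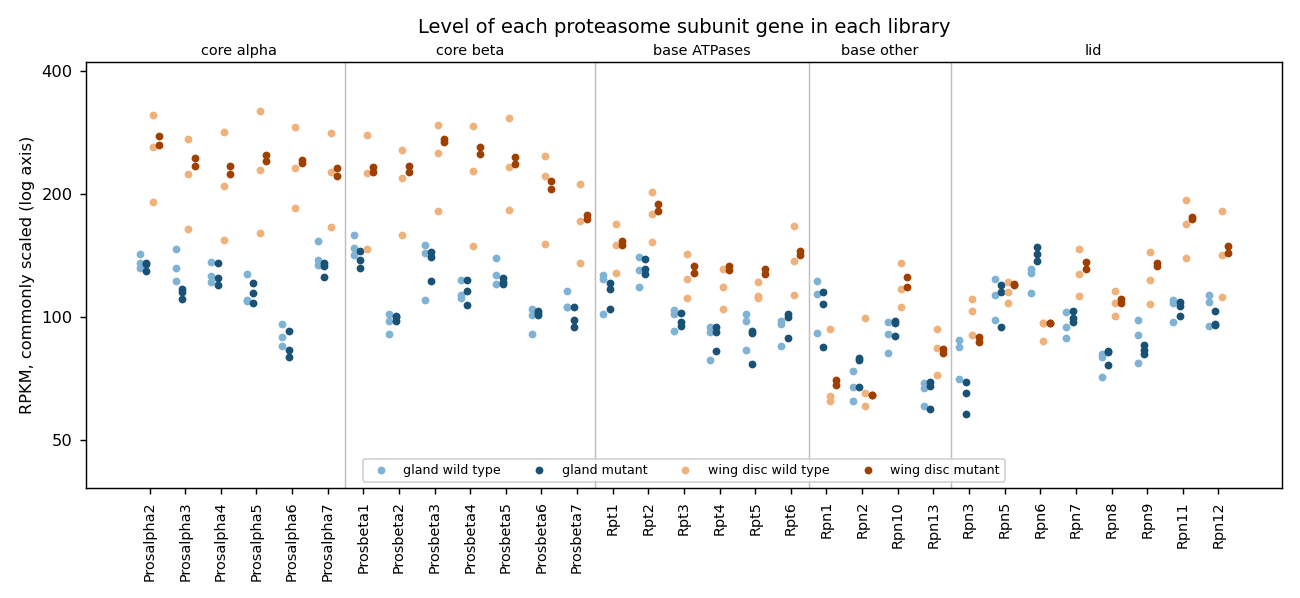
Level of each of the 31 subunit genes in each of the 11 libraries, in RPKM on a log axis, 1 point a library, with genes grouped by their place in the complex. The median of the core genes lies above that of the regulatory genes in each library, by 1.13 to 1.37 times in glands and 1.46 to 2.13 times in discs, where the 3 wild-type libraries are spread widely and the 2 mutant libraries lie close together.

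Within the wild-type gland the levels were close to each other, with the highest gene of a library 2.19 to 2.33 times the lowest. Prosbeta1 (FBgn0010590, 2R, 16013805 to 16014787, build BDGP6 as for all positions here), which carries the caspase-like site of the core, was the highest, at 141, 147 and 158 RPKM in wild-type replicates 1 to 3. Rpn13 (FBgn0033886, 2R, 13958545 to 13960404), a ubiquitin receptor of the base, was the lowest at 60.6, 67.0 and 68.8 RPKM. In the order of mean RPKM, 29 of the 30 pairs of neighbours differed by less than the larger SD of the pair, so only the broad order holds. The order was alike in mutant glands (Spearman rho 0.948 over the 31 genes, a description, since the genes share libraries).

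In wild-type discs the span was wider, at 4.06, 5.25 and 2.65 times in replicates 1 to 3. Prosalpha2 (FBgn0086134, 3R, 12431321 to 12432556), an alpha ring subunit, was highest by mean at 259.8, 312 and 190.3 RPKM, and the base scaffold Rpn1 (FBgn0028695, 3L, 19915051 to 19918160) was lowest at 63.9, 62.2 and 93.0. All 30 pairs of neighbours lay within the larger SD. The order was again alike in mutant discs (rho 0.984) and less so between wild-type glands and wild-type discs (rho 0.664). The genes that moved most in rank were Rpn6, rank 9 in glands and 28 in discs, Prosalpha6, rank 24 and 5, and Rpn1, rank 14 and 31.

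The first comparison asked whether the subunit genes changed in dCap-D3 mutant glands. None was called: 0 of 31 passed edgeR's quasi-likelihood test at an adjusted p of at most 0.05, against 10.7% of all 9006 genes tested, and 2 had an unadjusted p under that value. The median log2 fold change was -0.08, beside -0.04 over all genes. The 31 values ran from -0.40 to 0.13 with an SD of 0.10, while all genes had an SD of 1.26. Every 95% interval lay between -0.71 and 0.39, so within these libraries a 2-fold change of any subunit gene is outside its interval. Values were below 0 for 27 of 31, among them all 13 core genes. Of the core genes, Prosalpha3, Prosbeta1, Prosbeta2 and Prosbeta5 were followed singly under the alternatives. Of these, Prosbeta2 was above 0 without the filter on low counts, in 1 fit of all 4 groups and in 2 fits that left out a library. DESeq2's Wald test called 2 genes lower, Rpn3 and Prosalpha3.

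The lid subunit Rpn3 (FBgn0261396, 2L, 19051790 to 19053681) had the lowest value. It stood at 93.8, 116 and 103 CPM in wild-type glands and at 72.3, 85.5 and 80.0 CPM in mutant glands (CPM scaled within the tissue, as in all genotype comparisons). All 3 mutant libraries lay below all 3 wild-type libraries, but the test did not call the gene (log2 fold change -0.40 ± 0.13, adjusted p = 0.105), while DESeq2 gave -0.38 with an adjusted p of 0.0348. Prosalpha3 (FBgn0261394, 2R, 20994900 to 20996118), a gate subunit of the alpha ring picked out after its values were seen, went from 86.6, 92.8 and 95.7 to 77.8, 75.6 and 72.4 CPM, also without overlap. Its log2 fold change was -0.28 ± 0.10, adjusted p = 0.122, and -0.26 with an adjusted p of 0.0178 in DESeq2. At the other end, Rpn6 (FBgn0028689, 2R, 14750166 to 14752910), a lid subunit that bridges core and regulatory particle, stood at 162, 181 and 171 CPM in wild type and 182, 194 and 186 in the mutant. The mutant libraries were all higher, by a narrow margin, and the log2 fold change was 0.13 ± 0.10, adjusted p = 0.434.

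None of the catalytic subunits was called between the genotypes of the gland. Prosbeta1 stood at 87.6, 91.0 and 90.5 CPM in wild type and 84.5, 79.2 and 75.5 in the mutant (log2 fold change -0.17 ± 0.10, adjusted p = 0.302). Prosbeta2 (FBgn0023174, 3L, 14999951 to 15001319), which carries the trypsin-like site, stood at 68.3, 73.3 and 70.4 CPM in wild type and 70.4, 70.0 and 68.1 in the mutant (-0.02 ± 0.09, adjusted p = 0.881). Prosbeta5 (FBgn0029134, 2R, 10819978 to 10821178), with the chymotrypsin-like site, stood at 99.6, 105 and 106 CPM in wild type and 96.96, 93.4 and 92.1 in the mutant (-0.14 ± 0.10, adjusted p = 0.391). Mutant libraries were all below wild type for Prosbeta1 and Prosbeta5 and overlapped it for Prosbeta2. Rpn11 (FBgn0028694, 2L, 5058404 to 5059790), the lid's deubiquitinase, stood at 85.4, 96.5 and 87.5 CPM in wild type and 82.8, 88.4 and 86.2 in the mutant (-0.07 ± 0.10, adjusted p = 0.707). Rpn10 (FBgn0015283, 3L, 21537000 to 21538582), a ubiquitin receptor between base and lid, stood at 84.2, 99.98 and 86.4 CPM in wild type and 87.0, 92.5 and 93.2 in the mutant (0.01 ± 0.11, adjusted p = 0.959). For both the genotypes overlapped. In all, 7 of 31 genes had mutant libraries below all wild-type libraries and 1 had them above, or 25.8% of the genes, beside 36.4% of all genes tested. By class, a split examined after the values were seen, this held for 6 of 13 core genes, all lower (46.2%), and for 11.1% of the regulatory genes.

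In wing discs no subunit gene was called either: 0 of 31, against 0.475% of the 9689 genes tested, with 0 at an unadjusted p under 0.05 and 0 in DESeq2. The median log2 fold change was 0.12, beside -0.03 over all genes, and 28 of 31 values were above 0. Values ran from -0.14 for Rpn2 to 0.25 for Prosbeta4, and the 95% intervals reached from -0.77 to 1.12. They were wider than in glands, and 1 interval, that of Prosbeta4, included a 2-fold increase. Without wild-type replicate 3 the median was -0.05, so its sign rests on that library. Mutant libraries lay above all wild-type libraries for 4 genes and below them for 0, or 12.9%, beside 26.1% of all genes.

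Prosbeta4 (FBgn0032596, 2L, 16731180 to 16732133), a core beta subunit, stood at 289, 374 and 176 CPM in wild-type discs and 323 and 342 in mutant discs (log2 fold change 0.25 ± 0.34, adjusted p = 0.9997). Both mutant values lay between wild-type replicates 1 and 2. The base scaffold Rpn2 (FBgn0028692, 3R, 29153524 to 29157255) stood at 348, 324 and 489 CPM in wild type and 349 and 354 in the mutant (-0.14 ± 0.22, adjusted p = 0.9997), with wild-type replicate 3 far above the other 4 libraries. Rpt5 (FBgn0028684, 3R, 23752876 to 23754623), a base ATPase picked out after its values were seen, had the lowest adjusted p of the 31 at 282, 311 and 264 against 329 and 345 CPM (0.24 ± 0.14, adjusted p = 0.889). Its 2 mutant libraries were above all 3 wild-type libraries.

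The catalytic and ubiquitin-handling subunits overlapped between the genotypes of the disc. Prosbeta1 stood at 299.7, 372 and 181 CPM in wild type and 306 and 320.5 in the mutant (0.14 ± 0.33). Prosbeta2 stood at 354, 416 and 237 CPM in wild type and 372 and 391 in the mutant (0.18 ± 0.27), and Prosbeta5 at 415, 549 and 300.0 CPM in wild type and 428 and 452 in the mutant (0.06 ± 0.28). Rpn11 stood at 319, 366 and 243 CPM in wild type and 333 and 342 in the mutant (0.12 ± 0.21), and Rpn10 at 259.9, 302 and 217 CPM in wild type and 268 and 287 in the mutant (0.10 ± 0.19). The adjusted p of each of these 5 was 0.9997. In each, wild-type replicate 2 was the highest library and wild-type replicate 3 the lowest.

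**Figure D2:**
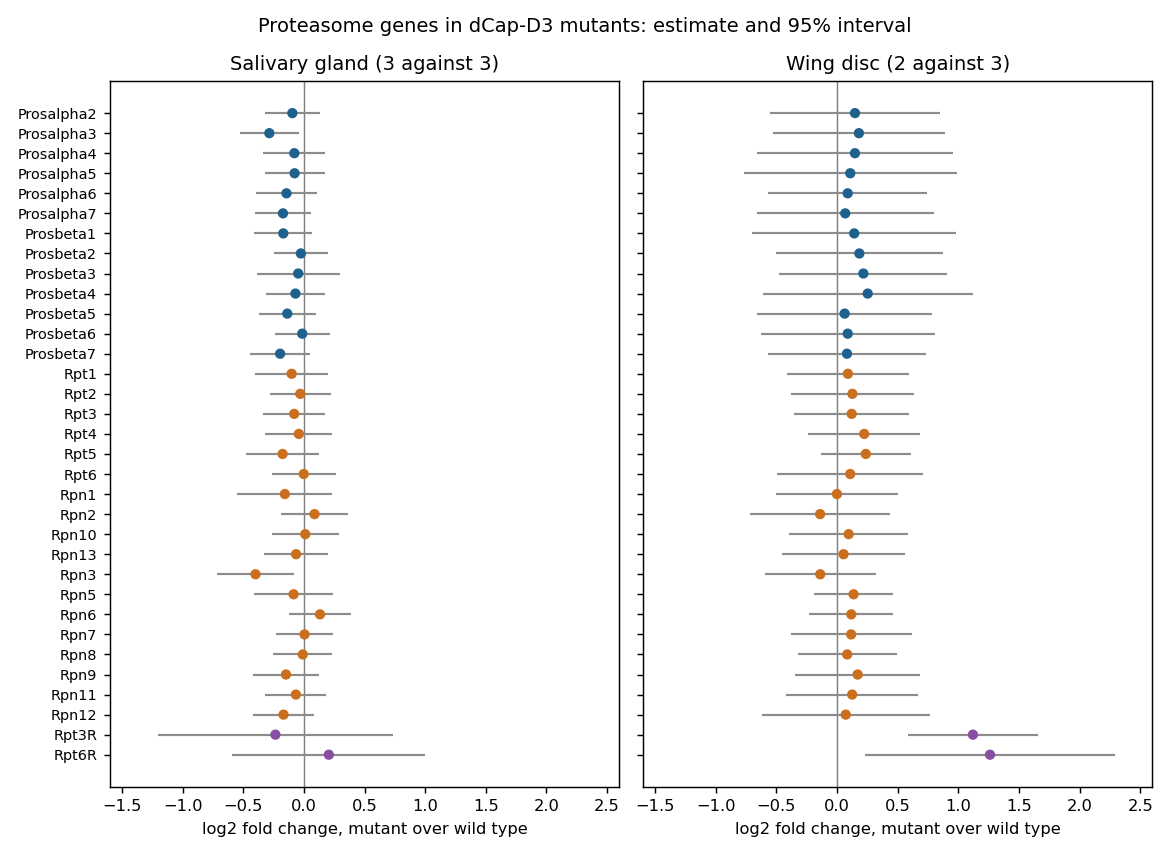
Log2 fold change of mutant over wild type with its 95% interval for the 31 subunit genes and the copies Rpt3R and Rpt6R, in salivary glands (3 against 3 libraries) and wing discs (2 against 3). Core genes are blue, regulatory genes orange and the copies purple. Subunit values lie between -0.40 and 0.13 in glands and between -0.14 and 0.25 in discs, and the 2 copies stand at 1.12 and 1.26 in discs.

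Whether the effect of the mutation differed between the tissues was tested in all 11 libraries. It was called for 0 of 31 subunit genes, against 0.848% of the 10850 genes tested, with 0 at an unadjusted p under 0.05 and 0 in DESeq2. The difference, gland effect minus disc effect, ran from -0.34 ± 0.27 for Prosalpha3 to 0.38 ± 0.30 for Rpn2 (adjusted p = 0.657 and 0.656). Its median was -0.08, beside 0.14 over all genes. In the authors' deposited table, 0 of 31 genes passed a false discovery rate of 0.05 in glands, where the lowest rate was 0.470, and 0 of 31 in discs, where it was 0.798. That table gave medians of -0.12 in glands and 0.08 in discs, and called 16.5% and 13.1% of its 11021 genes.

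Replicates of wild-type discs lay further apart than those of the other groups. The coefficient of variation of a subunit gene had a median of 5.23% among wild-type glands and 5.72% among mutant glands, against 13.6% and 15.6% over all tested genes. Among wild-type discs it was 22.9%, against 27.8%, and among the 2 mutant discs 3.16%, against 3.95%. In wild-type discs replicate 2 was the highest library for 29 of 31 genes and replicate 3 the lowest for 27. In mutant discs replicate 2 was above replicate 1 for 31 of 31. Summed over the 31 genes, the 3 wild-type discs held 9912, 11678 and 7904 CPM and the mutant discs 10362 and 10847, so that both mutant discs lay within the wild-type range (exact permutation test, two-sided, p = 0.7, where 0.1 is the smallest possible). In glands the sums were 3016, 3360 and 3273 CPM in wild type and 2937, 3137 and 3046 in the mutant (exact permutation test, p = 0.3).

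The tissues themselves were compared in the wild-type libraries. Of the 31 genes, 11 were called: 9 lower in glands, against 40.2% of all 9720 genes tested, and 2 higher in glands, against 30.2%. Over all genes 70.4% were called. Gland libraries lay below all disc libraries for 25 of the 31 genes and above them for 1, or 83.9%, beside 75.8% of all genes. In 1 fit of all 4 groups, for which no share over all genes is given here, 25 of the 31 were called, 23 lower (13 core, 10 regulatory) and 2 higher. All 9 lower genes but Rpn11 belonged to the core, where 8 of 13 were called, and both higher genes, Rpn1 and Rpn6, to the regulatory particle, where 3 of 18 were called. The median log2 fold change, gland over disc, was -0.78 over core genes, -0.26 over regulatory genes and -0.28 over all genes. Relative to all genes the core median was thus -0.50 and the regulatory median 0.02. The gland libraries were made without and the disc libraries with strand information, so tissue and kind of library cannot be told apart.

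The scaling sets the zero of this comparison. With DESeq2-type size factors the median of all genes moved by 0.255, to -0.03, and the calls became 3 lower and 2 higher. Relative to all genes the core median was then -0.52 and the regulatory median 0.01. Leaving out a library gave between 3 called genes, without disc replicate 1 or gland replicate 2, and 18, without disc replicate 3. The calls were 5 without gland replicate 1, 5 without gland replicate 3 and 4 without disc replicate 2. In each of these fits all 13 core values were below 0, while with length offsets, which take each library's trend on transcript length out, 7 of 13 were.

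Prosalpha6 (FBgn0250843, 2L, 10221351 to 10222546), an alpha ring subunit, differed most. It stood at 84.9, 88.99 and 95.7 RPKM in wild-type glands and 232, 291 and 184 in wild-type discs, with every gland below every disc (log2 fold change -1.27 ± 0.22, adjusted p = 0.00265). Prosbeta2 stood at 90.7, 97.5 and 102 RPKM in glands and 219, 256 and 159 in discs (-1.01 ± 0.23, adjusted p = 0.00754). The calls of both genes held in all 6 fits that left out a library and in all 6 other settings. Prosbeta6 (FBgn0002284, 3L, 16609400 to 16610418), a beta ring subunit without a catalytic site, stood at 90.8, 101 and 105 RPKM in glands and 221, 247 and 151 in discs (-0.95 ± 0.24, adjusted p = 0.0115), and its adjusted p was 0.0559 without disc replicate 2 and 0.119 with length offsets. Besides Prosbeta5 and Prosalpha2, the other called core genes were Prosalpha5 (-0.91 ± 0.28), Prosbeta4 (-0.83 ± 0.28) and Prosbeta3 (-0.74 ± 0.25).

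Of the other catalytic subunits, Prosbeta5 was called and Prosbeta1 was not. Prosbeta5 stood at 120.0, 126 and 139 RPKM in glands and 233, 307 and 182 in discs (-0.79 ± 0.24, adjusted p = 0.023). Prosalpha2 went from 131, 135 and 142 RPKM in glands to 259.8, 312 and 190.3 in discs (-0.78 ± 0.23, adjusted p = 0.0203). Neither tissue overlapped the other for these 2 genes, yet both calls ended without gland replicate 1 or 2, without disc replicate 1 or 2, with DESeq2-type size factors and in DESeq2, with adjusted p-values of 0.0529 to 0.114, and with length offsets. Prosbeta1 stood at 141, 147 and 158 RPKM in glands and 225, 278 and 147 in discs (-0.43 ± 0.27, adjusted p = 0.194), and disc replicate 3 fell among the glands. It was called without that library (-0.65, adjusted p = 0.0200).

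In the regulatory particle the scaffold Rpn1 was higher in glands, at 91.4, 114 and 122 RPKM against 63.9, 62.2 and 93.0 in discs (0.70 ± 0.23, adjusted p = 0.0343). Disc replicate 3 lay within the range of the glands. Rpn6 was higher in glands without overlap, at 114, 128 and 131 against 87.2, 96.7 and 96.7 RPKM (0.53 ± 0.16, adjusted p = 0.025). Both calls ended without disc replicate 1 or without gland replicates 2 or 3, with adjusted p-values of 0.0814 to 0.174, and without the filter on low counts. The deubiquitinase Rpn11 was lower in glands, at 97.1, 109.9 and 108 against 169, 193 and 139 RPKM (-0.55 ± 0.19, adjusted p = 0.0399), and of the 6 fits that left out a library the call held in 1, that without disc replicate 3. Its adjusted p in the others was 0.0824 to 0.241. Rpn10 stood at 81.3, 96.7 and 90.6 RPKM in glands and 117, 135 and 106 in discs (-0.30 ± 0.19, adjusted p = 0.196). None of the 6 base ATPase genes was called, and their values ran from -0.47 for Rpt6 to -0.18 for Rpt5.

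Over the 31 genes the tissue values followed the length of the transcript. Their log2 fold change, gland over disc, had a rank correlation of 0.838 with exonic length, and over 9629 genes it was 0.113. Core genes are mostly shorter than regulatory genes, so the correlation over the 31 genes cannot tell length from class. Within the core, where lengths differ little, the values had no steady order by length: Prosbeta1 (852 bp) stood at -0.43, Prosalpha6 (1070 bp) at -1.27 and Prosbeta7 (1215 bp) at -0.55. Among regulatory genes longer ones mostly stood higher: Rpn11 (1208 bp) at -0.55, Rpt5 (1627 bp) at -0.18, Rpn6 (1945 bp) at 0.53 and Rpn1 (3041 bp) at 0.70. The shortest and the longest of them, Rpn12 (995 bp) at -0.34 and Rpn2 (3412 bp) at -0.03, fell outside that order. Subunit genes under 1300 bp, 15 in number, had a median of -0.74, beside -0.625 over the 2697 genes of that length. From 1300 to 2000 bp the medians were -0.26 for 14 subunit genes and -0.47 for 2075 genes. From 2000 to 4000 bp they were 0.33 for 2 subunit genes and -0.17 for 2971 genes. Length also separated the wild-type disc libraries from each other. Replicate 3 over the mean of replicates 1 and 2 had a rank correlation with length of 0.922 over the subunit genes and 0.819 over all genes, and replicate 2 over replicate 1 one of -0.762 and -0.609. These correlations describe libraries that the genes share. The log2 ratio of replicate 3 to the mean of the others had a median of -0.705 over the core genes and -0.37 over the regulatory genes.

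**Figure D3:**
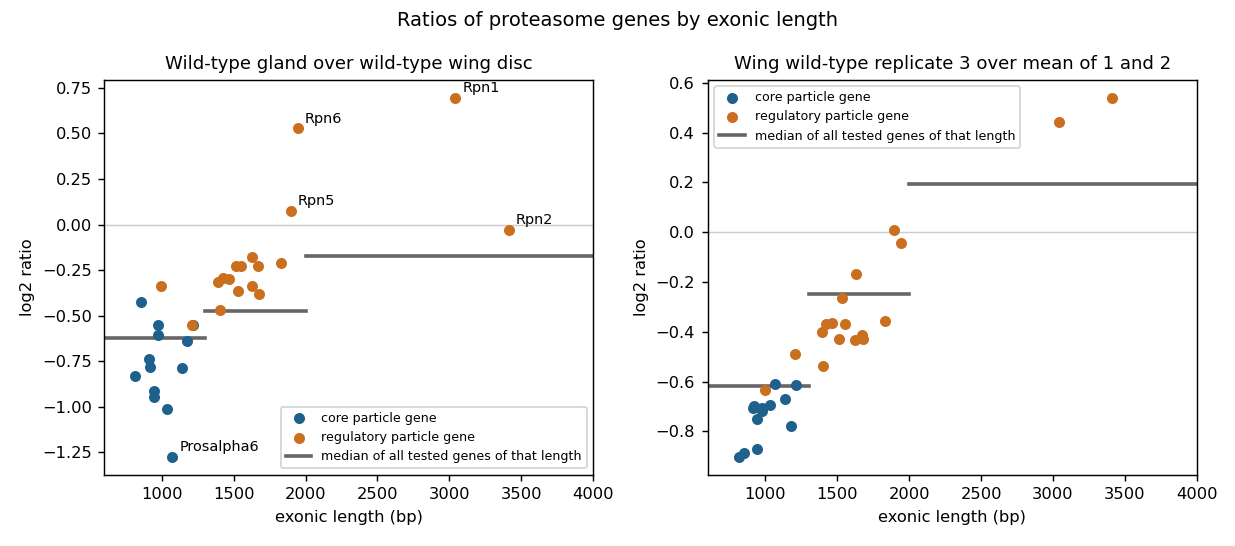
Log2 ratios of the 31 subunit genes against their exonic length, for wild-type gland over wild-type disc (left) and for wild-type disc replicate 3 over the mean of replicates 1 and 2 (right). Grey lines are the medians of all tested genes of the same length class. Core genes, which are short, lie toward the bottom of both panels, but with length offsets the median tissue value of all 31 genes is above 0.

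An alternative added after this was seen gave each library its own trend on length as an offset. The tissue comparison then called 2 subunit genes lower in glands, Prosalpha6 and Prosbeta2, and 6 higher. The share of all genes called in this setting is not given here. The median over the 31 genes was 0.15, beside 0.08 over all genes. The core median was -0.03 and the regulatory median 0.25, so that relative to all genes they stood at -0.11 and 0.18. The difference between core and regulatory median was -0.29, against -0.52 without the offsets. Prosbeta1 turned positive and was called higher in glands (0.34, adjusted p = 0.0225), and Rpn10 and Rpn11 turned positive at 0.26 and 0.12. In the genotype comparisons the offsets left the subunit calls at 0 in both tissues. The part of length in the tissue difference was not tested further.

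Within a library, the median RPKM of core genes over that of regulatory genes gives a ratio that no scaling between libraries can move. It was 1.28, 1.26 and 1.34 in wild-type glands and 1.37, 1.13 and 1.15 in mutant glands (exact permutation test, two-sided, p = 0.4). In discs it was 1.93, 2.13 and 1.46 in wild type and 1.83 and 1.83 in the mutant (exact permutation test, p = 1). All 3 wild-type glands lay below all 3 wild-type discs (exact permutation test, p = 0.1, the smallest that 3 against 3 libraries allow). Including sums and ratios of copies, 11 such comparisons were made, and no p was under 0.1. The split into core and regulatory genes was examined after the values were seen, and the ratio carries the length trend described above.

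**Figure D4:**
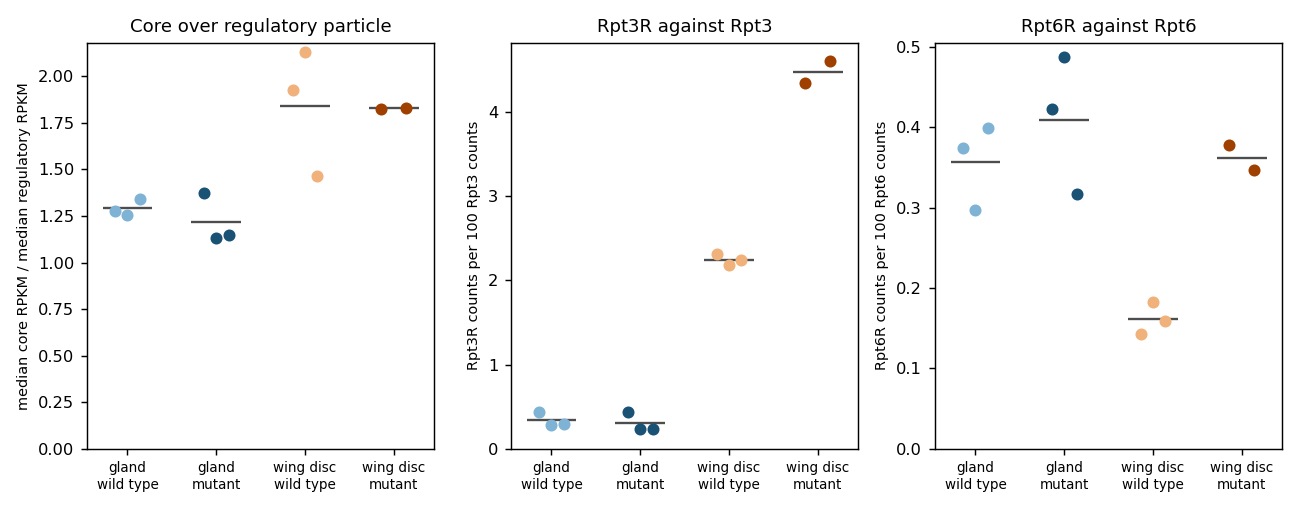
Ratios within each library, 1 point a library with the group mean as a line: median RPKM of core over regulatory genes, Rpt3R counts as a percent of Rpt3 counts, and Rpt6R counts as a percent of Rpt6 counts. The core ratio is 1.13 to 1.37 in glands and 1.46 to 2.13 in discs. In discs both copies stand higher against their parent gene in the mutants than in wild type, at 4.34% and 4.604% against 2.18% to 2.31% for Rpt3R.

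Drosophila carries extra copies of many proteasome genes, several of them known from testis, where they take the place of the common subunit. Of these, Rpt3R (FBgn0037742, 3R, 9754735 to 9756510), a copy of the base ATPase gene Rpt3, was the most abundant here. It stood at 6.95, 7.55 and 5.60 CPM in wild-type discs and 13.7 and 15.4 in mutant discs. Both mutant libraries were about 2-fold above the wild-type libraries, with no overlap. The log2 fold change was 1.12 ± 0.21, adjusted p = 0.16, so the gene was not called, while DESeq2 called it (adjusted p = 6.67e-05) as did the fit with length offsets (adjusted p = 0.0153). The authors' deposited table called it too, at 1.08 with a false discovery rate of 1.92e-05. Over the other settings and the fits that left out a library, the adjusted p was 0.120 to 0.99999. Against its parent gene Rpt3R counts were 2.31%, 2.18% and 2.24% of Rpt3 counts in wild-type discs and 4.34% and 4.604% in mutant discs (exact permutation test, two-sided, p = 0.1, the smallest possible). In glands it was low, at 0.450, 0.327 and 0.313 CPM in wild type and 0.447, 0.249 and 0.232 in the mutant (-0.23 ± 0.40, adjusted p = 0.729). The gland effect minus the disc effect was -1.22 ± 0.43, adjusted p = 0.261. Wild-type glands were below wild-type discs (-2.97 ± 0.32, adjusted p = 3.85e-04), and this call held in all 12 alternatives.

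Rpt6R (FBgn0039788, 3R, 30582198 to 30583697), a copy of the ATPase gene Rpt6, was scarcer, with 27, 41 and 62 counts in wild-type discs and 77 and 66 in mutant discs. In CPM these were 0.430, 0.672 and 0.365 against 1.19 and 1.14, again without overlap (1.26 ± 0.40, adjusted p = 0.384, and 0.0850 in DESeq2). The authors' deposited table called it, at 1.21 with a false discovery rate of 4.36e-04. Rpt6R counts were 0.143%, 0.183% and 0.159% of Rpt6 counts in wild type and 0.378% and 0.347% in the mutant (exact permutation test, two-sided, p = 0.1, the smallest possible). In glands it stood at 0.324, 0.291 and 0.366 CPM in wild type and 0.361, 0.470 and 0.299 in the mutant (0.21 ± 0.33, adjusted p = 0.711). Between wild-type tissues the log2 fold change was 0.66 ± 0.40, adjusted p = 0.181, and length offsets called it (1.22, adjusted p = 0.0204). Markers of testis and germline, 6 genes, summed to 6.01 to 8.16 CPM in wild-type discs and 4.88 to 6.16 in mutant discs. In wild-type and mutant glands they summed to 1.297 to 1.602 and 3.09 to 4.61. The largest in discs was twe, at 5.34, 4.635 and 6.56 CPM in wild type and 5.09 and 3.89 in the mutant. Single markers went both ways in discs. There vas stood at 0.112, 0.229 and 0.07055 against 0.635 and 0.692 CPM, and ocn at 0.207, 1.15 and 0.223 against 0 and 0. In glands Mst87F went from 0.522, 0.909 and 0.905 to 3.99, 3.40 and 2.36 CPM. The part of germline cells in the values of the copies was not tested. Reads of Rpt3R and Rpt6R that match the parent gene cannot be assigned with certainty.

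The 13 copies named by position were nearly silent. Together they held 1 to 18 counts in a gland library, 29, 134 and 116 in wild-type discs and 12 and 19 in mutant discs. As shares of all counts, the wild-type discs held 4.7e-05%, 2.06e-04% and 7.4e-05% and the mutant discs 1.9e-05% and 3.2e-05%. Wild-type replicate 2 thus stood apart, and replicate 3 was the deepest library. Prosbeta2R2 (FBgn0037296, 3R, 5217751 to 5219528), related to the trypsin-like subunit, was the only one of them to pass the filter on low counts in discs, with 11, 23 and 22 counts in wild type and 8 and 8 in the mutant (-0.76 ± 0.64, adjusted p = 0.9997). Prosbeta5R2 held 0, 24 and 10 counts and Prosbeta5R1 0, 11 and 17 in wild-type discs, and both held 0 in the mutant discs. Prosalpha6T (2, 9 and 14), Prosalpha4T1 (0, 13 and 7) and Prosbeta4R2 (3, 13 and 1) were likewise at 0 in both mutant discs. Rpt4R (2, 3 and 13) and Rpn12R (2, 9 and 10) held at most 2 counts in a mutant disc. Where a disc library holds 0 counts of a gene, its level could still reach 3 counts, or 0.0176 to 0.0519 CPM. These limits cover counting error only.

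Sem1, a small lid subunit outside the naming rule, was not called in glands, in discs or between tissues (log2 fold changes -0.29 ± 0.11 in glands, 0.04 ± 0.37 in discs and -0.33 ± 0.30 between tissues), although length offsets turned the last to 0.70 and called it. Of the wider pathway, 0 genes were called in mutant glands, in mutant discs or in the difference between tissues, in each of 7 groups. They were 8 proteasome regulators and assembly factors, 6 genes of the cnc pathway and 5 of the TER94 complex. The others were 10 genes of ubiquitin, SUMO and NEDD8 with their activating enzymes, 14 conjugating enzymes (E2), 8 COP9 signalosome genes and 6 of eIF3. The COP9 and eIF3 complexes resemble the lid. Over all genes 10.7%, 0.475% and 0.848% were called in these comparisons. At an unadjusted p under 0.05 there were 9 of the 57 genes in glands, beside 2650 of all 9006, 0 in discs, beside 924 of 9689, and 1 for the difference, beside 1412 of 10850. In glands DESeq2 called at most 1 higher and 1 lower gene in a group, and length offsets 1 gene of the TER94 complex. cnc itself had log2 fold changes of 0.05 ± 0.11, adjusted p = 0.788, in glands and -0.41 ± 0.57, adjusted p = 0.9997, in discs. Of the heat shock and co-chaperone genes, 14 of 19 rose and 0 fell in mutant glands, beside 10.7% of all genes called (median log2 fold change 1.64), and DESeq2 called 14 higher and 1 lower. stv, a co-chaperone gene, stood at 2.83 ± 0.18, adjusted p = 8.94e-04 on the log2 scale, and Hsp26, a small heat shock gene, at 4.66 ± 0.41, adjusted p = 0.00259. In discs 0 of 17 were called (2 in DESeq2). At an unadjusted p under 0.05 there were 5 of the 17, beside 924 of 9689. These were Hsp26 (0.96), DnaJ-1 (0.44), Hsp70Ab (3.84), Hsp70Bb (4.45) and Hsp70Bc (3.95), all above 0. The Hsp70 values rest on low levels, with Hsp70Bb at 0, 0.0819 and 0.0118 CPM in wild type and 0.898 and 0.363 in the mutant. The difference between tissues was called for 4 of 19, beside 0.848% of all genes. For each of them, stv, Hsp26, DnaJ-1 and Hsp68, the mutant effect was larger in glands. DESeq2 called 8 and length offsets 6. That list was drawn up with earlier results of these data known.

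**Figure D5:**
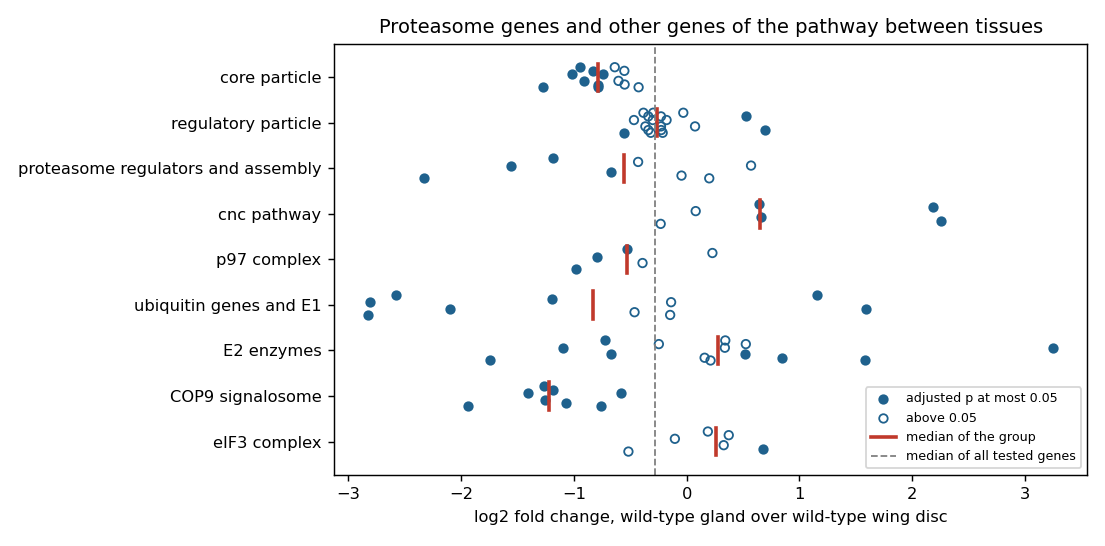
Log2 fold change of wild-type gland over wild-type disc for core and regulatory genes and 7 groups of related genes, 1 point a gene, filled where the adjusted p is at most 0.05, with the median of each group in red and that of all genes as a dashed line. COP9 signalosome genes all lie below the dashed line and all cnc pathway genes above it, while E2 enzymes lie on both sides. With length offsets the core median is -0.11 from that of all genes.

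Between wild-type tissues 40.2% of all genes were lower in glands and 30.2% higher, and the main counts of the related groups are to be read against these shares. For the other settings no share over all genes is given here. Of the 8 regulators, 4 were lower in glands and 0 higher: REG, an activator that caps the core particle (-2.33 ± 0.19, adjusted p = 1.86e-04), Uch-L5, a deubiquitinase bound to the regulatory particle (-1.56 ± 0.19, adjusted p = 6.82e-04), the core assembly chaperone Pomp (-1.19 ± 0.29, adjusted p = 0.0108) and ntc. With length offsets 3 regulators were lower and 3 higher. All 8 COP9 signalosome genes were lower, with a median of -1.22 and CSN5, its catalytic subunit, at -1.41 ± 0.19, adjusted p = 8.85e-04. With DESeq2-type size factors, DESeq2 or length offsets the COP9 count was 7. The SUMO genes were lower as well, with smt3, which encodes SUMO, at -2.57 ± 0.24, adjusted p = 2.62e-04 and its activating enzyme at -2.82 ± 0.20, adjusted p = 1.32e-04 for Uba2 and -2.81 ± 0.23, adjusted p = 1.74e-04 for Aos1. The polyubiquitin genes Ubi-p63E (1.59 ± 0.27, adjusted p = 0.00228) and Ubi-p5E (1.16 ± 0.19, adjusted p = 0.0019) were higher. In all, 5 of the 10 genes of ubiquitin, SUMO and NEDD8 with their activating enzymes were lower and 2 higher. The lower ones were smt3, Uba2, Aos1, Nedd8 (-1.20 ± 0.29, adjusted p = 0.0106) and Uba3 (-2.09 ± 0.20, adjusted p = 2.75e-04). RpL40, RpS27A and Uba1, of the ubiquitin genes and their activating enzyme, were not called. These counts were near the shares over all genes, as were the 4 of 8 regulators.

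Beside 30.2% of all genes higher and 40.2% lower in glands, the cnc pathway had 4 of 6 genes called higher and 0 lower in the settings run, except that length offsets called 5 higher. cnc stood at 2.25 ± 0.51, adjusted p = 0.00798, and sip3, the ligase of the endoplasmic reticulum that is called Hrd1 in other species, at 2.19 ± 0.22, adjusted p = 3.39e-04. Of the TER94 complex, which extracts ubiquitinated proteins, 3 of 5 genes were lower, Plap at -0.98 ± 0.17, adjusted p = 0.00284, and TER94, its ATPase, was not called (0.23 ± 0.22, adjusted p = 0.39). With DESeq2-type size factors 1 of the 5 was lower, and with length offsets 1 was lower and 2 higher. Of 14 E2 genes 4 were higher and 4 lower, no larger shares than over all genes, and vih, an E2 of mitosis, was the lowest at -1.75 ± 0.17, adjusted p = 2.70e-04. DESeq2 called 9 E2 genes higher and length offsets also 9. Of 6 eIF3 genes 1 was higher, eIF3-S9 (0.68 ± 0.21, adjusted p = 0.0249), against 4 in DESeq2 and 5 with length offsets. The 30.2% and 40.2% are shares of the main fit. For DESeq2 and length offsets no share over all genes is given here. The E2, eIF3 and cnc pathway counts of those fits thus cannot be read against one.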

How the data were processed

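RNA of 11 libraries was sequenced as paired reads. The deposited count table holds raw counts per gene, and the submitters' processing notes list HTSeq 0.6.1, TopHat2 2.0.8b, BWA, Trim Galore and FastQC, and BDGP6 as build. For their roles, the strand setting and the treatment of shared reads no source used here gives an account, so reads of overlapping or near-identical genes are uncertain. The largest overlap of exons on the opposite strand is that of Rpt6 with CG1801, 13.0% of its exons. Per the file headers, the authors' comparison tables hold log2 fold changes and log2 mean CPM, a likelihood ratio score, p-values and false discovery rates, by a tool that no header names.

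Counts were fitted with edgeR 4.0.16 in R 4.3.3 (quasi-likelihood F-test, robust legacy dispersions, TMM scaling), with Benjamini-Hochberg adjustment over all genes of a fit and calls at 0.05. Low counts were removed by filterByExpr with a minimum count of 10, which need not be met in every library, and a minimum total of 15. Standard errors (±) of log2 fold changes were taken as their size over the root of F. Genotypes were compared within each tissue, tissues in the wild-type libraries, and the difference of effects in all 11. DESeq2 1.42.0 was an alternative. The scripts were tested on simulated data. CPM for genotype comparisons was scaled within the tissue and RPKM over all libraries, per kilobase of exon in the Ensembl annotation of BDGP6, at whose gene positions all 31 subunit genes lay. Other alternatives were DESeq2-type size factors, no filter, leaving out each library or the 10 most abundant genes, 1 fit of all 4 groups, and length offsets, added after seeing the data.

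The members and lists were chosen with earlier results of these data known. Values in every library are given for up to 5 called genes per direction, the highest and lowest value of a comparison, Prosbeta1, Prosbeta2, Prosbeta5, Rpn11, Rpn10 and copies with a count of at least 10, and for up to 3 called genes of other lists. Prosalpha3 in glands, Rpt5 in discs, Sem1, Nedd8, Uba3, single testis and germline markers and uncalled genes of other lists were added after their values were seen. No libraries looked like repeats: the chi-square between those of 1 group was 22.3 to 1801 times its degrees of freedom. Promoter motifs and protein sequences were not analysed here.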

Additional observations from a re-analysis of the deposited data

How the results depend on the processing

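The gland, disc and interaction counts of called subunit genes were 0 under each alternative run, except that DESeq2 called 2 in glands. The tissue count of 11 became 5 with DESeq2-type size factors, 5 in DESeq2, 25 in 1 fit of all 4 groups and 3 to 18 when a library was left out. The other tissue counts were 16 without the filter, 13 without the 10 most abundant genes and 8 with length offsets. Shares over all genes in these tissue alternatives are not given here. The tissue median of -0.38 turned to 0.15 with length offsets. Over all genes, the disc count of 46 became 245 with length offsets, 140 in 1 fit of all 4 groups, 583 in DESeq2 and 0 without wild-type replicate 1, mutant replicate 1 or mutant replicate 2. The gland count of 961 became 2091 in DESeq2 and 310 to 1071 when a library was left out.

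Of 438 values of named genes under the alternatives, 381 kept their sign and their side of the threshold, 31 lost a call, 8 gained one and 18 changed sign. The sign changed in glands for Prosbeta2 (0.0166 without the filter, 0.0373 in 1 fit of all 4 groups) and Rpn10 (-0.0033 with length offsets), and in discs for Prosbeta5 (-0.00091 in 1 fit of all 4 groups). Between tissues it changed with length offsets for Prosbeta1 (0.34), Rpn10 (0.26) and Rpn11 (0.12). When a library was left out, gland values ran from -0.0491 to 0.0331 for Prosbeta2 and -0.0364 to 0.095 for Rpn10. Disc values ran from -0.259 to 0.039 for Rpn2, -0.0216 to 0.514 for Prosbeta4, -0.128 to 0.38 for Prosbeta1, -0.0409 to 0.363 for Prosbeta2, -0.16 to 0.295 for Prosbeta5, -0.0489 to 0.257 for Rpn11 and -0.0461 to 0.213 for Rpn10, each changing sign without wild-type replicate 3. The cause of these changes was not tested. No paired analysis was possible because the labels number the libraries singly and give no replicate numbers shared between groups. Disc wild-type replicate 3 is numbered 59 in the labels, apart from the other libraries at 22 to 31, and whether it was prepared apart is not given. With 2 or 3 libraries a group, intervals in discs are wide.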
